A study of Mus musculus with 12 samples.

Results

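The endoplasmic reticulum (ER) chaperones and stress sensors are 31 mouse genes taken by name, and all 31 were among the 18204 genes measured on the arrays. Each gene was read from the probe set with the highest mean intensity, and the gene means over all animals ran from 193.2 to 7099 intensity units, so every member had a mean of 100 or more. The livers came from male 129SV mice aged 7 to 8 months that lacked Sirt4 (KO, n = 6) and from their littermates with intact Sirt4 (WT, n = 6), all killed after a 16-h fast and with no further treatment. SIRT4 is a sirtuin of the mitochondrial matrix. Both genotypes were fasted and no fed liver was included, so the comparison asks what loss of Sirt4 does to these transcripts in the fasted state. The labels do not say how the allele was made or in which cells Sirt4 was lost. Each animal had its own Affymetrix Mouse Genome 430 2.0 array, an oligonucleotide array hybridised with biotinylated cRNA.

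The ER folds the proteins that a cell secretes or places in membranes, and hepatocytes, which make most plasma proteins, depend on it heavily. When unfolded protein builds up, the sensors IRE1 (Ern1), PERK (Eif2ak3) and ATF6 start the unfolded protein response: IRE1 splices the messenger of the transcription factor Xbp1, PERK slows translation, and ATF6 is cut to release a transcription factor that raises chaperone genes. Hspa5, also called BiP, is the HSP70 chaperone of the ER and holds the sensors inactive while it is free, and its transcript is a widely used readout of ER load. The arrays read transcript levels, not the splicing of Xbp1, the cutting of ATF6 or the phosphorylation of a sensor.

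A DNA element that joins several of these genes is the ER stress response element (ERSE), in which the factor NF-Y binds CCAAT and ATF6 or XBP1 binds CCACG. The search covered RefSeq promoters of assembly GRCm38.p6, from 250 bases before to 50 after a gene's start, on both strands. The letters sought were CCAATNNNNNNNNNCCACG for ERSE and ATTGGNCCACG for the related ERSE-II. The ERSE holds CCAAT and CCACG by its own definition, and ERSE-II holds CCACG and the complement of CCAAT. Promoters were at hand for 26 members; Manf, Hyou1, Derl1, Sec61a1 and Atf6 had none. ERSE was present in 10 of the 26 members (38.5%), against 22 of the 14329 measured genes with a promoter (0.154%). ERSE-II was present in 2 of the 26 (7.69%), against 0.0628% of the measured genes. The 11 ERSE matches and then the 2 ERSE-II matches are shown because they are the shared regulatory letters of the set, each read along the motif with its fixed letters in capitals and its spacer in lower case:
Hspa5 (chr2:34772025-34772043, plus strand): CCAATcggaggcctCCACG
Hsp90b1 (chr10:86705533-86705551, plus strand): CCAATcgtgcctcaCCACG
Hsp90b1 (chr10:86705638-86705656, minus strand): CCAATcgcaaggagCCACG
Dnajc3 (chr14:118937827-118937845, plus strand): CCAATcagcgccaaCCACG
Creld2 (chr15:88819520-88819538, minus strand): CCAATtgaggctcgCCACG
Pdia6 (chr12:17266491-17266509, plus strand): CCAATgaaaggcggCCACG
Ero1b (chr13:12565682-12565700, minus strand): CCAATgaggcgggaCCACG
Calr (chr8:84847075-84847093, plus strand): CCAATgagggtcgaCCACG
Canx (chr11:50325800-50325818, minus strand): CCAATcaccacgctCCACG
Syvn1 (chr19:6046532-6046550, plus strand): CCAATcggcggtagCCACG
Derl3 (chr10:75893242-75893260, minus strand): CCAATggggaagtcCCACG
Dnajb11 (chr16:22857852-22857862, plus strand): ATTGGcCCACG
Herpud1 (chr8:94386377-94386387, plus strand): ATTGGgCCACG

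The Hspa5 match ends 47 bases before the start of the gene, and the ERSE matches of all 10 members lie between 26 and 194 bases before it. A match to TGACGTGG, the core of the element bound by XBP1, was found in 0 of the 26 members, against 0.935% of the measured genes. The short pieces were common everywhere: CCACG stood in 84.6% of the members and 46.3% of the measured genes, and CCAAT in 80.8% and 42.1%. A match is a description of these letters and not evidence that a factor was bound in these livers.

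The 250 bases before the start are shown for Hspa5 and Hsp90b1, the HSP70 and HSP90 chaperones of the ER, and for Creld2, the member that varied most between animals, with the fixed letters of each ERSE in capitals on the strand of the gene:
Hspa5 (chr2:34771840-34772089, plus strand): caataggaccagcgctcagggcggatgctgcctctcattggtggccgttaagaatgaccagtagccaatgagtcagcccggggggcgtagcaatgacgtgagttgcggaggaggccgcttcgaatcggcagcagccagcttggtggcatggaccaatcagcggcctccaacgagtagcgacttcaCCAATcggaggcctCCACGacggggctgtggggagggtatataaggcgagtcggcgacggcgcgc
Hsp90b1 (chr10:86705445-86705694, minus strand): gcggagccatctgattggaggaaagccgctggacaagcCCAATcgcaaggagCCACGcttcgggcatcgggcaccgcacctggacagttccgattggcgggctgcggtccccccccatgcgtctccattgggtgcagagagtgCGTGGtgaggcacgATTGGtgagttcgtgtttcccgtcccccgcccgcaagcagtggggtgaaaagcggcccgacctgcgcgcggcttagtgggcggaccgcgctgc
Creld2 (chr15:88819396-88819645, plus strand): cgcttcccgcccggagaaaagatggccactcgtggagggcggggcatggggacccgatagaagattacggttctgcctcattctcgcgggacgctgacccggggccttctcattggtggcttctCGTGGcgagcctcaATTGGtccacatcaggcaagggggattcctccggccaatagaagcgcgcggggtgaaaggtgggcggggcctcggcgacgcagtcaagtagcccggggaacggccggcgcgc

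The level of Sirt4 averaged 104.3 ± 16.4 in KO livers and 171.7 ± 14.5 in WT livers (SD, n = 6 each), with every KO value below every WT value (log2 difference -0.53, limma adjusted p = 0.0361). The KO mean was 60.7% of the WT mean, and no label says where the deletion lies relative to the probe set. The summed level of 10 hepatocyte markers such as Alb and Ttr spanned 140667 to 148360 in KO livers and 141049 to 147839 in WT livers. Any 2 arrays correlated at 0.9889 or more over the log2 levels of all genes. The animal numbers in the titles fall into a 7200 series (5 KO and 2 WT) and a 7500 series (1 KO and 4 WT), and the labels do not say what the numbers mark.

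No member passed the test of genotype. On log2(intensity + 50), 0 of 31 members had an adjusted p under 0.05 in limma, where 0.00549% of all genes did (1 gene, Sirt4 itself). At an unadjusted p under 0.05, 0 members were higher in KO (3.12% of all genes) and 0 were lower (3.19%), and in 0 members were the genotypes free of overlap (0.247% of all genes). The log2 difference was above 0 for 19 members and below 0 for 12, while 50.3% of all genes lay above 0. Its median was 0.02 over the members and 0.00 over all genes, and 23 members lay within 0.1 of 0.

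**Figure D1:**
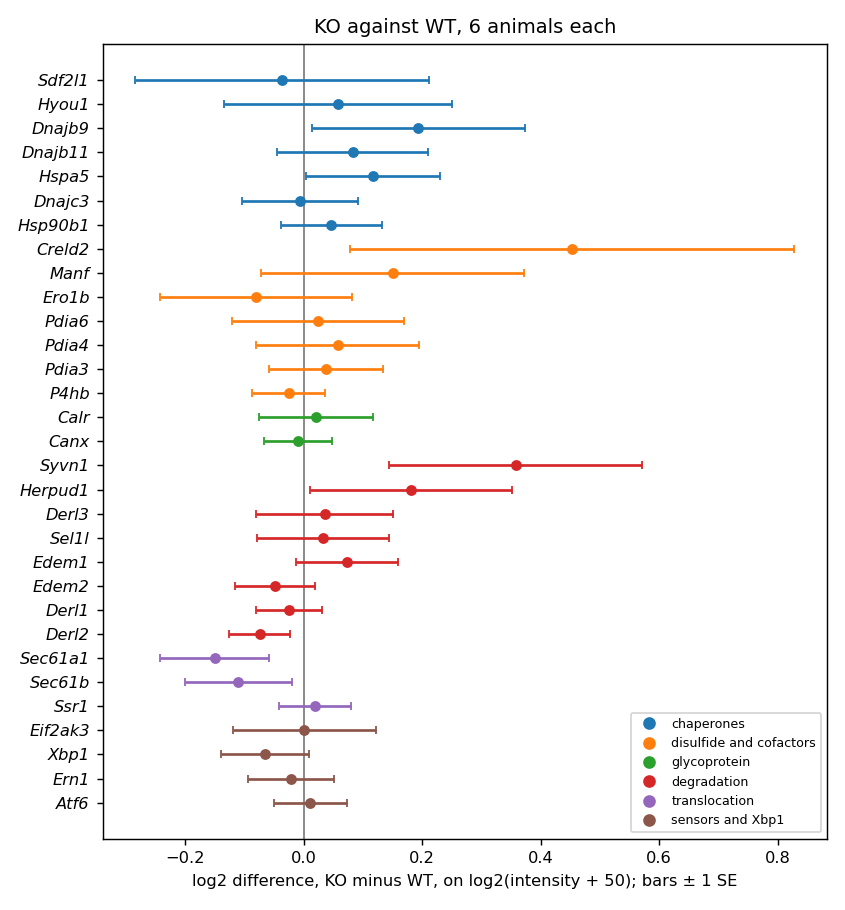
Log2 difference of each ER gene, KO minus WT (horizontal axis, points), with bars of ± 1 SE from limma, 6 animals a genotype, coloured by role. The differences run from -0.15 for Sec61a1 to 0.45 for Creld2, and no member passed an adjusted p of 0.05.

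Among the chaperones, Hspa5 had 6607 units in the lowest, 6987 in the median and 8083 in the highest KO liver, against 5063, 6401 and 8831 in the WT livers. Both extremes of Hspa5 were therefore WT animals, and every KO value lay between them. The log2 difference of Hspa5 was 0.12 ± 0.11 (SE, limma adjusted p = 0.908; exact two-sided permutation p = 0.392, where 924 arrangements of the animals allow no p below 0.00216). Hsp90b1, the HSP90 chaperone that folds a small set of secreted and membrane clients, spanned 5866 to 7104 units in KO and 5168 to 7494 in WT livers. Hyou1, a large HSP70 relative that recharges BiP with ATP, spanned 731.5 to 1177 units in KO and 605.7 to 1535 in WT livers. The WT range enclosed the KO range for both. Dnajb9, Dnajb11 and Dnajc3 are J-domain partners that hand unfolded protein to BiP, and Sdf2l1 works beside Dnajb11. Their log2 differences were 0.19, 0.08, -0.01 and -0.04, with SEs of 0.18, 0.13, 0.10 and 0.25. For this role as a whole the median difference was 0.06, and adjusted p ran from 0.907 to 0.996.

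The largest difference of any member was that of Creld2, a cysteine-rich protein of the ER that is also secreted. Its level was 673.7 units in the lowest, 1255 in the median and 2055 in the highest KO liver, against 341.2, 789.9 and 2069 in the WT livers. The genotypes overlapped over most of that range, and the log2 difference of 0.45 ± 0.37 (SE) had a limma adjusted p of 0.88. Manf, a small secreted ER protein that protects stressed cells, had 2300.2, 2802 and 3871 units in KO against 1558, 2381 and 4521 in WT livers. The oxidoreductases Pdia3, Pdia4, Pdia6 and P4hb, which make and rearrange disulfide bonds, differed by 0.04, 0.06, 0.02 and -0.03 on the log2 scale. Ero1b, which reoxidises them, differed by -0.08. Each of these differences was smaller than the gene's own SD within genotype. The glycoprotein chaperones Calr and Canx, lectins that hold newly made glycoproteins, stood at 5123 ± 567 and 3723 ± 165 units in KO, against 5070 ± 784 and 3754 ± 318 in WT livers (SD, n = 6 each).

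In ER-associated degradation, which pulls misfolded proteins back to the cytosol, Syvn1 had the smallest p of all members. This ubiquitin ligase (HRD1) had 512.1 units in the lowest, 906.7 in the median and 1155 in the highest KO liver, against 440.7, 654.6 and 1138 in WT livers. Its log2 difference was 0.36 ± 0.21 (SE, limma unadjusted p = 0.115, adjusted p = 0.834; exact permutation p = 0.195). Herpud1, an adaptor of the Syvn1 complex, differed by 0.18 ± 0.17 and Sel1l, the partner that steadies the ligase, by 0.03 ± 0.11 (log2, SE). Edem1 and Edem2, which mark glycoproteins for removal by trimming mannose, differed by 0.07 and -0.05, and the derlins Derl1, Derl2 and Derl3, membrane proteins of the export channel, by -0.02, -0.07 and 0.04. The protein-conducting channel gave the lowest values: its pore Sec61a1 differed by -0.15 ± 0.09 (log2, SE, exact permutation p = 0.180) and its small subunit Sec61b by -0.11 ± 0.09, while Ssr1, an accessory subunit beside the channel, differed by 0.02. Sec61a1 still overlapped, with 945.8 to 1207 units in KO and 996 to 1461 in WT livers.

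The sensors had close means in both genotypes. Ern1 averaged 755.4 ± 69.5 units in KO and 768.3 ± 83 in WT livers, Eif2ak3 259.6 ± 49 and 260.4 ± 59.8, and Atf6 277.2 ± 17.2 and 275.3 ± 29.2 (SD, n = 6 each). Xbp1, whose messenger IRE1 splices, averaged 3741 ± 298 units in KO and 3928 ± 436 in WT livers. Adjusted p for these members ran from 0.922 to 0.999.

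As a set, the members varied more between animals of one genotype than genes in general did. Their SD within genotype had a median of 0.194 on the log2 scale, against 0.112 for all genes and 0.107 for the 8306 genes with a mean of 100 units or more. The spread was widest for Creld2 (0.795, above 99.9% of all genes), Sdf2l1 (0.523), Manf (0.467), Syvn1 (0.45) and Hyou1 (0.402). It was narrow for Derl2 (0.08), Derl1 (0.0897), Canx (0.0946), Ssr1 (0.104), Atf6 (0.105) and P4hb (0.106). Creld2 covered a 6.06-fold range over the 12 livers and Sdf2l1 a 3.34-fold range, where Ssr1 covered 1.22-fold.

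The same animals stood high or low for many members at once. KO animal 4 was the highest liver for 3 of the 31 members, WT animal 5 for 22 and WT animal 2 for 3. KO animal 5 was the lowest for 4, WT animal 1 for 14 and WT animal 4 for 8. KO animals 2 and 4 with WT animals 2 and 5 were the 4 livers with the highest mean over the members. For 11 members they were exactly the 4 highest livers, and for 23 members these 4 were all among the highest 6. They were picked from the members' own levels, so the counts describe the pattern and are no separate evidence for it. Such counts of livers were not made over all genes. The mean over members of the centred log2 levels reached 0.24 in KO animal 4, and it was 0.35 in WT animal 5 and -0.32 in WT animal 1. By genotype it was 0.021 ± 0.151 in KO and -0.021 ± 0.262 in WT livers (SD, n = 6 each), a difference of 0.04 that went as low as -0.02 without WT animal 1 and as high as 0.12 without WT animal 5. The sign of that difference therefore turned on single animals.

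**Figure D2:**
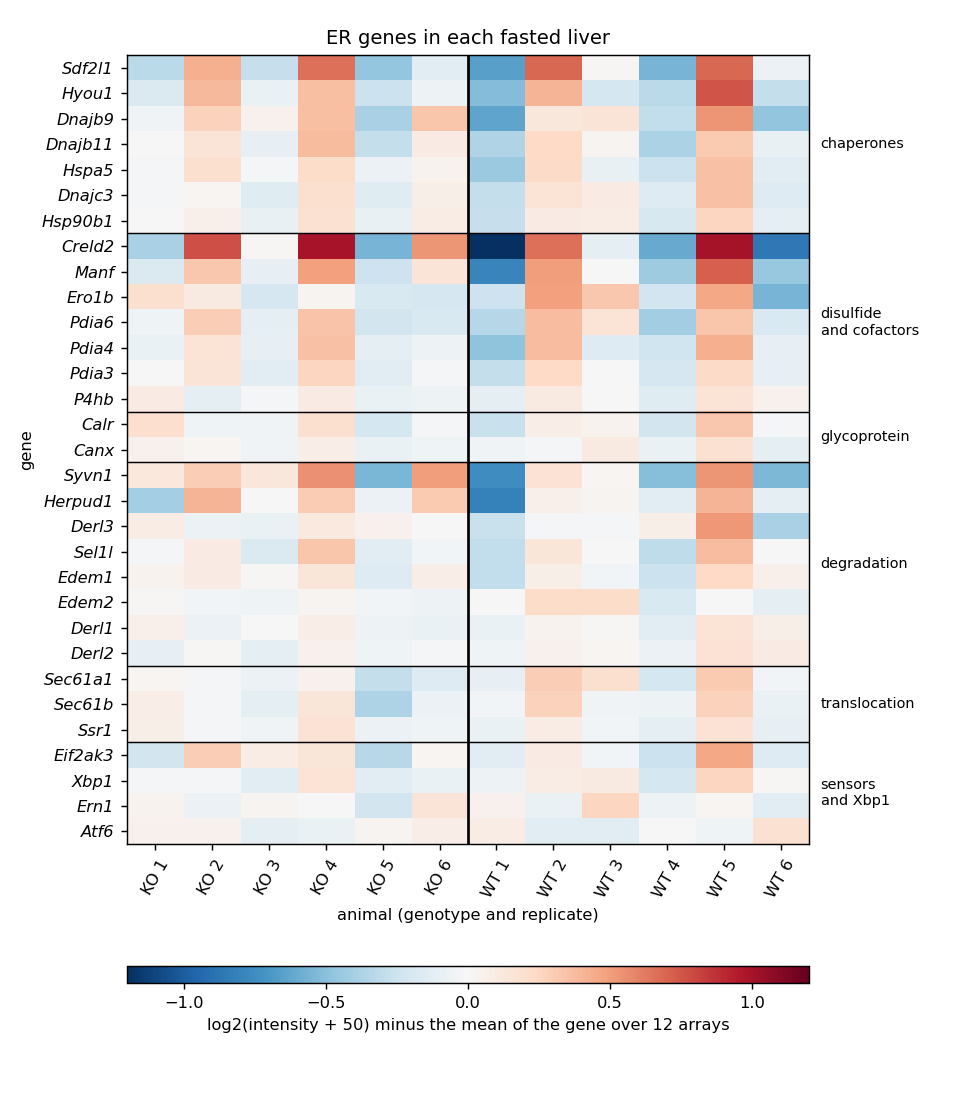
Level of each ER gene (rows, by role) in each liver (columns, KO left, WT right), as log2(intensity + 50) minus the gene's mean over the 12 arrays. WT animal 5 holds the highest value of 22 members and WT animal 1 the lowest of 14, and the rows of Atf6, Ern1 and Edem2 do not share the pattern of Creld2, Manf and Sdf2l1.

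To measure which genes went with Hspa5 from animal to animal, limma was fitted to the other 18203 genes with genotype and the log2 level of Hspa5 as terms. The slope is the log2 change of a gene per log2 unit of Hspa5 at a given genotype, and Hspa5 itself covered 0.797 log2 units over the 12 livers. This fit was added after the shared pattern had been seen, so it measures that pattern and is no separate evidence for it. At an adjusted p under 0.05, 13 of the 30 other members were called, all upward, where 0.225% of all genes were called (41 genes, 35 of them upward, 0.192%). The 5 smallest p-values of all 18203 genes belonged to members. At an unadjusted p under 0.05, 26 of 30 were upward (4.6% of all genes). Slopes were above 0 for 28 of 30 members (51.7% of all genes), with a median of 0.72 over the members and 0.01 over all genes.

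The 5 members with the smallest p were Manf, Hyou1, Pdia4, Creld2 and Sdf2l1. Creld2 changed by 3.27 log2 units per log2 unit of Hspa5 (95% interval 2.57 to 3.97, limma adjusted p = 3.45e-04), Sdf2l1 by 2.16 (1.69 to 2.63, adjusted p = 3.45e-04), Manf by 1.99 (1.66 to 2.32, adjusted p = 4.34e-05), Hyou1 by 1.70 (1.37 to 2.02, adjusted p = 1.68e-04) and Pdia4 by 1.22 (0.97 to 1.46, adjusted p = 2.11e-04). In role terms, 6 of 6 chaperones were called, 5 of 7 of the disulfide and secreted factors, 2 of 8 of the degradation genes (Syvn1 1.67 and Sel1l 0.90), and 0 of the 2 glycoprotein chaperones, 3 channel genes and 4 sensor genes. Dnajb9, Dnajb11, Dnajc3, Pdia3, Pdia6 and Hsp90b1 made up the rest of the calls, with slopes from 0.65 to 1.40. Just outside the threshold in limma stood Herpud1 (1.28, adjusted p = 0.0578) and Edem1 (0.64, adjusted p = 0.06).

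**Figure D3:**
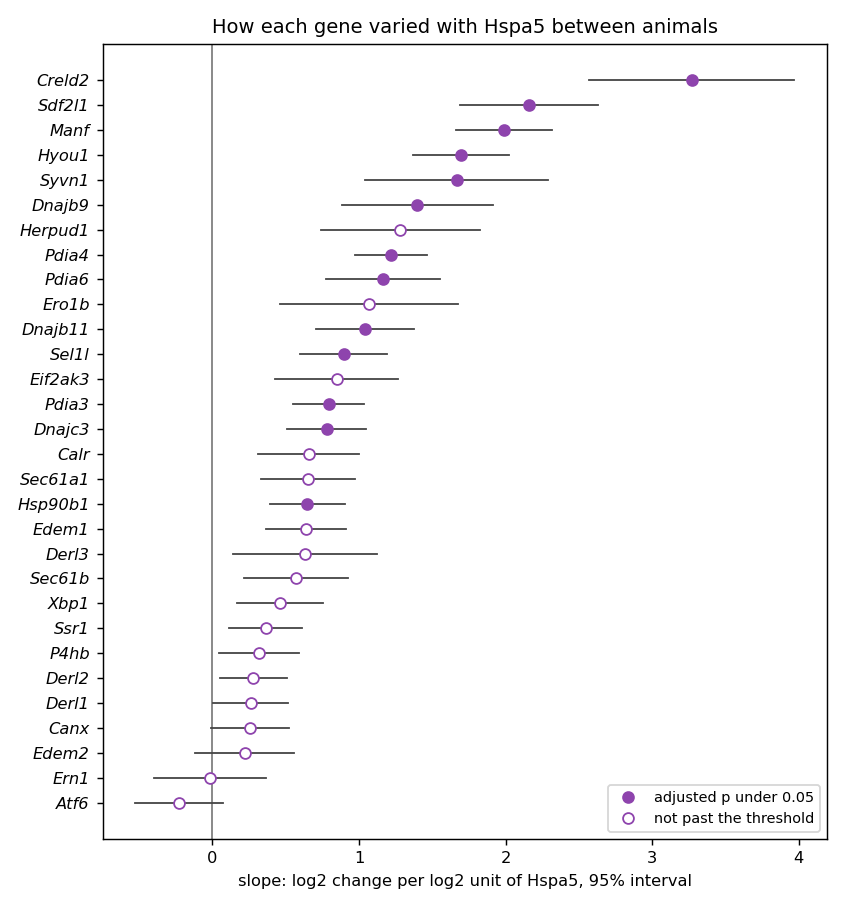
Slope of each ER gene on Hspa5 (horizontal axis, log2 change per log2 unit of Hspa5, 12 livers, genotype as a term), with 95% intervals from limma. Filled points, 13 of 30, had an adjusted p under 0.05; Creld2 stands highest at 3.27, and the intervals of Atf6, Ern1, Edem2 and Canx include 0.

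The 4 sensor genes had slopes on both sides of 0. Atf6 had a slope of -0.22 (95% interval -0.52 to 0.08) and Ern1 one of -0.02 (-0.40 to 0.37), the only members below 0. The intervals of Canx (-0.01 to 0.52) and Edem2 (-0.12 to 0.56) also included 0. The intervals of Atf6 and Ern1 lie below the whole interval of Hsp90b1 (0.39 to 0.90), although the difference between members was not tested. Those of Canx and Edem2 overlap it. Eif2ak3 had 0.85 (0.43 to 1.27, limma adjusted p = 0.129) and Xbp1 0.46 (0.17 to 0.75, adjusted p = 0.304). In the liver with the most Hspa5, WT animal 5, Creld2 stood at 2069 units and Atf6 at 263.4 units, and in WT animal 1, with the least Hspa5, Creld2 stood at 341.2 and Atf6 at 296.9 units.

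**Figure D4:**
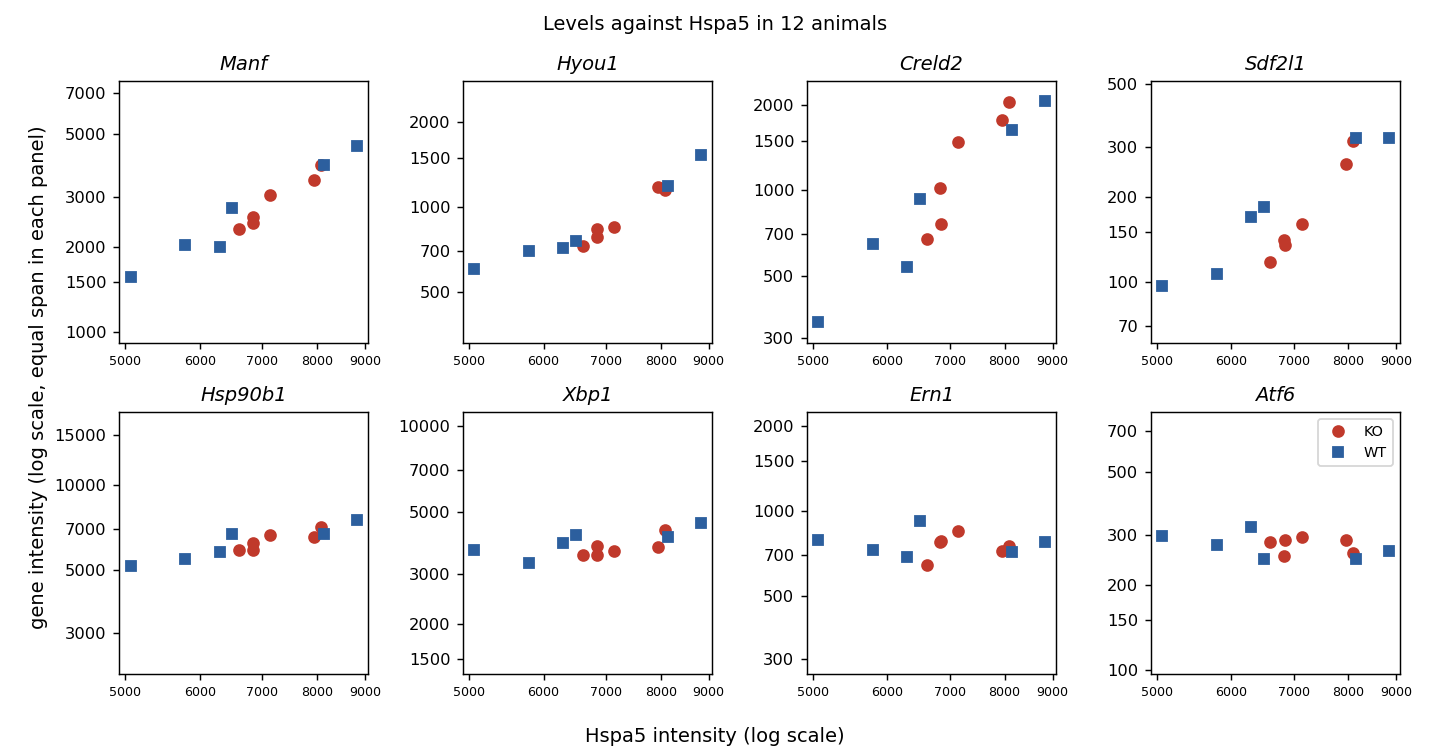
Level of 8 ER genes (vertical axes, intensity on a log scale with the same fold span) against Hspa5 (horizontal axes, intensity on a log scale) in 6 KO (circles) and 6 WT livers (squares). Manf, Hyou1, Creld2 and Sdf2l1 climb with Hspa5 in both genotypes, Hsp90b1 and Xbp1 less steeply, and the slopes of Ern1 and Atf6 are -0.02 and -0.22.

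The pattern was present in each genotype taken alone. In the KO livers 29 of 30 slopes were above 0 (51.6% of all genes) and 1 member was called, Sdf2l1 (0.0165% of all genes, 3 genes). In the WT livers 28 were above 0 (51.7%) and 5 were called, Sdf2l1, Creld2, Manf, Pdia4 and Hyou1 (0.0549%, 10 genes). Hspa5 varied less in KO than in WT livers, with an SD of 0.121 and 0.299 on the log2 scale. In limma the slope differed between genotypes for 0 of 18203 genes after adjustment and for 4.91% at an unadjusted p under 0.05. Among the members Sdf2l1 had the smallest p for this difference, with slopes of 3.72 in KO and 1.90 in WT livers (limma unadjusted p = 8.35e-04, adjusted p = 0.994). Creld2 followed, with slopes of 4.83 and 3.01 (limma unadjusted p = 0.0487, adjusted p = 0.994). Each member called over all livers had the steeper slope in KO livers, while P4hb, Calr, Edem2, Derl1, Derl3 and Ero1b had the lower slope there.

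How many members were called depended on a few livers. Without WT animal 1, the liver lowest in Hspa5, 5 members were called of 11 genes in all. Without WT animal 5, the highest, 7 members were called of 16 genes, and without KO animal 4, 8 members of 13 genes. With neither WT animal 1 nor WT animal 5, which lay farthest from the median of Hspa5, 3 members were called of 3 genes in all, namely Sdf2l1 (2.89), Manf (2.14) and Hyou1 (1.83), and 28 of 30 slopes stayed above 0. Within the 7200 series 5 members were called of 9 genes in all, with 28 of 30 slopes above 0. Within the 7500 series, with 5 livers of which 1 was KO, 29 of 30 slopes were above 0. With the title series as a term 13 members were called of 38 genes in all. With Hsp90b1 in place of Hspa5, 13 of the other 30 members were called, where 0.17% of all genes were.

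Acute-phase genes also moved in some of these livers. Their mean centred log2 level was 0.98 in KO animal 4, 1.67 in WT animal 5 and 1.34 in WT animal 6, and below 0 in the other 9. WT animal 6, high in acute-phase genes, was low in the ER genes at -0.16. The median slope of the 10 acute-phase genes on Hspa5 was 2.03 and 0 of them were called. At an unadjusted p under 0.05, 5 of them were upward (4.6% of all genes). Without WT animals 5 and 6, 6 members were called of 12 genes in all. Of 7 macrophage, plasma cell, neutrophil, stellate, endothelial, pancreas and hepatocyte marker lists, 0 held a gene called with Hspa5. Endothelial markers had 0 of 8 slopes above 0 (median -0.26) and stellate markers 2 of 8 (median -0.22), with 1 and 2 downward at an unadjusted p under 0.05. The livers at the extremes of Hspa5 were extreme here too: the mean centred log2 level of the endothelial markers was -0.29 in WT animal 5 and 0.16 in WT animal 1, and that of the stellate markers -0.14 and 0.16. Between genotypes, 12 of 12 macrophage markers were below 0, and 11 were lower at an unadjusted p under 0.05 in limma (3.19% of all genes). Of these markers 0 passed adjustment, and their summed levels were 3408 to 5948 units in KO and 4044 to 7680 in WT livers. Above 0 were 0 of 9 B and plasma cell, 1 of 7 neutrophil, 1 of 10 acute-phase and 2 of 7 pancreas genes. For stellate, endothelial and hepatocyte genes the counts were 3 of 8, 7 of 8 and 6 of 10 (50.3% of all genes). The part of the acute-phase and marker genes in the ER values was not tested. In a whole liver, fewer cells of a type and less RNA per cell cannot be told apart.

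The ERSE was found on both sides of the slope test. Of the 11 called members with a promoter, 5 held an ERSE (Hsp90b1, Dnajc3, Creld2, Pdia6 and Syvn1), and of the 14 not called, 4 did (Ero1b, Calr, Canx and Derl3). The 12 measured genes outside the set that held one had a median slope of 0.01, 6 of them above 0. Of these, 1 was called, Alg12, a mannosyltransferase of the ER (slope 0.78, limma adjusted p = 0.0204). Alg12 and Creld2 lie head to head on chromosome 15 with 327 bases between their starts, and the ERSE found in the Alg12 promoter is the one printed above for Creld2.

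Other genes of the same pathways came from lists of genes outside the 31. Folding and glycosylation had 29 further genes, degradation 22, and the channel with signal-peptide genes 22. A list around ATF6 had 12 genes and one around IRE1 decay 11. Between genotypes the log2 difference was above 0 for 15 of 29 folding, 15 of 22 degradation and 5 of 22 channel genes. It was above 0 for 6 of 12 genes of the ATF6 list and 6 of 11 of the IRE1 list (50.3% of all genes). In these lists 0 genes passed the adjusted test between genotypes. At an unadjusted p under 0.05, 1 was higher (3.12% of all genes) and 1 lower (3.19%). The higher was Marchf6, an ER ubiquitin ligase, at 2704 ± 76.4 units in KO and 2466 ± 165 in WT livers (log2 0.13, limma unadjusted p = 0.0175, adjusted p = 0.747). The lower was Ppib, a prolyl isomerase of the ER, at 3948 ± 233 and 4315 ± 323 (log2 -0.13, limma unadjusted p = 0.0451, adjusted p = 0.784). Slopes on Hspa5 were above 0 for 23 of the 29 folding genes, 18 of the 22 degradation genes and 22 of the 22 channel genes (51.7% of all genes). At an unadjusted p under 0.05, 13, 7 and 8 of them were upward (4.6% of all genes) and 0 downward. After adjustment 0 of these were called, and the lowest limma adjusted p was 0.0578.

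Next by unadjusted p in these lists, none past 0.05, were Fkbp11 (-0.15), Krtcap2 (-0.12) and Ero1a (0.08) for folding, Edem3 (0.11), Ube2j2 (-0.09) and Yod1 (0.18) for degradation, and Ssr4 (-0.10), Sec61g (-0.13), Srp9 (-0.09) and Sec61a2 (0.17) for the channel, all as log2 differences. In the ATF6 list they were Yy1 (0.08), Creb3l1 (-0.11), Mbtps1 (0.07) and Nfya (0.06), and in the IRE1 list Pdgfrb (-0.16), Galnt10 (-0.09), Rtcb (0.05) and Pmp22 (-0.04). All of these lay within 0.2 of 0.

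Of 18 genes of the PERK and ATF4 arm, 7 were above 0 between genotypes and 0 were called. The smallest p belonged to Asns, asparagine synthetase, a target of ATF4. Its level was 395.3 ± 130 units in KO, with a range of 151.5 to 494.3, and 942.8 ± 568 in WT livers, with a range of 462 to 1914 (log2 -1.05, limma unadjusted p = 0.00443, adjusted p = 0.747). Bbc3 (-0.16), Eif4ebp1 (-0.13) and Atf3 (-0.12, 38.5 and 45.95 units, near the array background) followed. Ddit3, also called CHOP, was the 1 gene of these lists called with Hspa5 (slope 1.17, limma adjusted p = 0.0304).

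The last list held 12 heat shock genes, 10 of chaperones and partners in the cytosol and 2, Hspd1 and Hspe1, of mitochondrial chaperones. All 12 were above 0 between genotypes, where 50.3% of all genes were, with a median log2 difference of 0.27. At an unadjusted p under 0.05, 6 were higher in KO, all of the cytosolic kind (3.12% of all genes), and 0 passed adjustment. Hspa1a, an inducible HSP70, averaged 183.2 ± 75 units in KO and 71.3 ± 23.2 in WT livers (log2 0.89, limma unadjusted p = 7.44e-04, adjusted p = 0.739). Hspa1b, another inducible HSP70, averaged 6074 ± 1730 and 3600 ± 1610 units (log2 0.85, limma unadjusted p = 0.0172, adjusted p = 0.747). Bag3, a co-chaperone of HSP70, differed by 0.45, Dnajb1 by 0.43 and Hspb1 by 0.31. The 12 of 12 held with arrays centred on their median, with quantile normalization and within each title series, although the 7500 series holds only 1 KO liver. The 12 genes were read in the same livers, so their signs are not 12 independent observations. Their slopes on Hspa5 were above 0 for 12 of 12, with a median of 0.53, and 6 had an unadjusted p under 0.05 (4.6% of all genes upward), with 0 called. Hspa5 and Hsp90b1, their ER relatives, differed by 0.12 and 0.05 between genotypes, and the difference from the heat shock list was not tested.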

How the data were processed

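RNA from 12 livers, 6 KO and 6 WT, was measured with 1 array each. The deposited intensities are linear values that the authors had brought to a common level (array medians 36.6 to 38.69); per the submitters' processing notes RMA was among the tools, and 689 cells hold 0. The authors' deposited table also carries a signed fold change and a t statistic, which are scores, and unadjusted p-values, per the file headers; these were not used. Gene symbols in that table stand beside the wrong rows, so 37865 of 45037 probe sets were assigned to 1 of 18204 genes by their own gene number (36239), by the 1 current number among several (575) or by accession (1051), with names from RefSeq (GRCm38.p6); 6526 matched no gene and 646 several.

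Log2(intensity + 50) of the probe set with the highest mean was tested with limma 3.58.1 in R 4.3.3 (Benjamini-Hochberg over all genes, threshold 0.05, two-sided), beside exact permutation of the 12 animals for single members. The members, lists and tests were chosen with earlier results of these data known. Every member was to be named, and from each pathway list the 4 genes with the smallest p, and any that passed, were named. Ddit3, Alg12, Hspa1b and the genes called with Hspa5 were chosen after their values were seen. The fit on Hspa5 was added after the data were seen. Tested on simulated data, the genotype fit recovered 92% of genes changed by 0.5 and 54% of those changed by 0.3 (log2). The Hspa5 fit recovered 86% of genes with a slope of 1, and 12 and 7 unchanged genes were called in the respective fits. The simulation planted many changed genes, some changed by 1 or more, and drew the noise of each gene independently. In these data 1 gene passed between genotypes, so the simulated shares do not give the power of the test here. Members vary more than genes in general (median SE of the genotype difference 0.0978 against 0.0639), and the shares were not simulated for them alone. The number of arrays limits the precision. Promoter motifs were searched as exact letters. Alternatives covered the offset, a floor, the normalization, the choice of probe sets, dim genes, the variance model, the title series and each animal left out.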

Additional observations from a re-analysis of the deposited data

How the results depend on the processing

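No paired analysis was possible because replicates were numbered in accession order and the animal numbers in the titles are not shared between genotypes. Under each of the 23 alternatives 0 members were called between genotypes. The 1 gene called, Sirt4, became 0 with a floor of 10, with 16 as the offset, with the title series as a term, within the 7200 or the 7500 series and without WT animals 5 and 6, and it ranged from 0 to 1 with each animal left out. Members above 0 numbered 19, and 10 (without WT animal 1) to 25 (without WT animal 5) with 1 animal left out; 11 remained above 0 without KO animal 4. The difference in the members' mean ranged from -0.02 to 0.12 with 1 animal left out.

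Of the 41 genes and 13 members called with Hspa5, there were 12 and 6 with a floor of 10, 12 and 5 with 16 as the offset, 15 and 10 with the mean of all probe sets, 12 and 6 without WT animals 5 and 6, 9 and 5 within the 7200 series, 0 and 0 within the 7500 series, 3 and 3 without the pair farthest from the median of Hspa5, 3 and 1 in KO livers and 10 and 5 in WT livers. With 1 animal left out, genes ranged from 11 to 46 and members from 5 to 13. The subsets hold fewer animals; otherwise the cause was not tested. Sdf2l1 was called in 26 of 27 alternatives, Manf and Hyou1 in 25, Creld2 and Pdia4 in 24 and Hsp90b1 in 5 of 26. No called slope changed sign. Of 18 members with several probe sets of 100 units or more, 10 had probe sets of opposite sign between genotypes. Of the 64 such probe sets of all members, beside the one that measured Hspa5, 61 had a slope above 0. These 64 include the 30 that gave the members' slopes, 28 of them above 0. They also include the other Hspa5 probe sets (slopes 1.18 and 1.16), so the count is no separate check. In 62 sets of 6 animals (31 members in each genotype), 0 held an animal apart by Dixon's criterion.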

Other observations

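Beside the ER members, 28 genes were called with Hspa5 in limma, 22 upward and 6 downward, in a fit chosen after the data were seen. The upward genes named here were picked after their values were seen, and 0 of the listed further folding, degradation and channel genes were called. Slc35b1, a transporter that brings ATP into the ER, had a slope of 1.08 (limma adjusted p = 0.0015), and Hspa13, an HSP70 relative of the ER, one of 0.85 (adjusted p = 0.0135). Ficd, the enzyme that adds AMP to BiP and removes it, had a slope of 1.22 (limma adjusted p = 0.0148), at a mean of 153.6 units. Sugar donors for glycoproteins were represented by Uap1 (1.16), Gmppb (0.79) and Gmppa (0.58), the glycan anchor enzyme Piga had 1.32, and Sec23b, a coat protein of vesicles leaving the ER, and Tmed3, a cargo receptor, had 0.83 and 0.99. Their differences between KO and WT ran from -0.12 (Gmppb) to 0.17 (Uap1), with limma adjusted p of 0.873 or more.

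Other genes called with Hspa5 belong to different pathways. Alas1, the rate-limiting enzyme of heme synthesis, had a slope of 2.13 (limma adjusted p = 0.0321). Among the downward genes were Gsta2, a glutathione transferase, at -1.39, Rab30, a Golgi GTPase, at -1.04, Krt23, a keratin, at -1.64, and Etnppl, a phospholyase of phosphoethanolamine, at -2.20. Slurp1 (-0.79) had a mean of 18.66 units and lies near the array background.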
